A study of Mus musculus with 6 samples.

Results

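The lymphoid priming genes examined here are 10 genes that multipotent blood cells transcribe ahead of lymphoid commitment or that act early in B and T cells. They were chosen by name, and their rows were taken by symbol from the table of normalized counts. Of the 10, *Ikzf1*, *Ikzf2*, *Ikzf3*, *Satb1*, *Bcl11a*, *Dntt*, *Notch1*, *Cd79b*, and *Lck* had a row, so that 9 of the 26264 genes in the table are described, and *Ighm* was not analysed here. Bulk RNA-seq was performed on untreated hematopoietic stem cells (HSCs) sorted from bone marrow as Lin-Sca1+cKit+ cells that were CD150 positive and CD48 negative. The cells came from 3 wild-type (WT) C57Bl/6 mice and 3 *Irf1-/-* mice (B6.129S2-Irf1 tm1Mak/J), all female and 8 weeks old, with 1 library per mouse. In *Irf1-/-* mice the gene was inactivated in the germ line, so every cell of the body and not HSCs alone carried the mutation. Libraries are named by the replicate numbers 2, 3, and 4 of their labels. A normalized count is the number of reads on a gene divided by 1 size factor per library.

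Lymphoid priming is the low-level transcription of lymphoid genes in stem and multipotent progenitor cells that have not yet given up their other fates. Zinc finger factors of the IKAROS family, the chromatin organizer SATB1, and the repressor BCL11A act at this stage, before the surface receptor FLT3 and the recombination machinery mark lymphoid progenitors. NOTCH1 signaling then directs progenitors in the thymus to the T cell fate, TdT (encoded by *Dntt*) adds bases at the joints of antigen receptor genes, and CD79B and LCK carry signals from the B and T cell antigen receptors.

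Reads on genes were 59658080, 45332573, and 43267486 in WT replicates 2, 3, and 4, and 43138521, 57281017, and 45129929 in *Irf1-/-* replicates 2, 3, and 4. Genes of the sort markers had reads in all 6 libraries. *Kit* lay between 77902 and 88715 normalized counts, while *Cd48*, negative in the sort gate, lay between 256.7 and 430.7. *Slamf1*, which encodes CD150, lay between 2848 and 3198 in WT and between 3412 and 3823 in *Irf1-/-* libraries. *Ly6a*, which encodes Sca1, lay between 6908 and 7692 in WT and between 4974 and 6047 in *Irf1-/-* libraries. *Irf1* itself had 10122, 11120, and 12057 normalized counts in the WT libraries and 9267, 9524, and 9287 in the *Irf1-/-* libraries. All *Irf1-/-* values were thus below all WT values, at a fold change (log2) of −0.24 (SE 0.088, adjusted *P* = 0.170, limma). Which part of the gene the allele lacks is not given in the sources used here, so a count over the whole gene does not check the labels.

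WT replicates 3 and 4 stood apart in genes of other cell types. WT replicate 3 had 4071 normalized counts of *Jchain*, an immunoglobulin joining chain made by plasma cells, against at most 33.1 in any other library, and 114 of *Mzb1* against at most 32.2. The summed level of the 3 plasma cell markers (*Jchain*, the most abundant on average, *Sdc1*, and *Mzb1*) was 4744 there and between 547.6 and 808.1 elsewhere. Without *Jchain* the sum was 673.9 there and between 521.8 and 775.0 elsewhere, and *Sdc1* was lower there (560.1) than in all other libraries but WT replicate 4 (499.2). WT replicate 4 had 2032 normalized counts of the neutrophil granule gene *Ltf* against at most 64.0 elsewhere, 1033 of *S100a8* against at most 110.0, and 46.3 of *Ly6g* against at most 1.07, while *Mpo* (252.8) and *Elane* (64.55) were higher in *Irf1-/-* replicate 4 (355.0 and 67.5). Without *Lyz2*, the most abundant of 8 neutrophil and monocyte markers, the other 7 summed to 5340 in WT replicate 4 and to between 337.0 and 803.5 elsewhere. No marker of these 2 lists was at 0 in all libraries.

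Fold changes are *Irf1-/-* over WT on the scale of log2(normalized count + 1), from limma fitted to the 17404 genes that averaged at least 10 normalized counts. A call required an absolute log2 fold change above 0.58 together with an adjusted *P* below 0.05. All 9 genes were tested, *Ikzf3* through its WT values alone, since its *Irf1-/-* mean of 8.78 was under the minimum. No direction is read from the fold change of *Ikzf3*. By limma 0 of 9 were called, where 0.96% of all tested genes were called higher, 0.954% lower, and 1.91% in either direction. With no threshold on the fold change 1 of 9, *Satb1*, passed as higher, against 1.73% of all tested genes higher and 3.22% in either direction. At an unadjusted *P* under 0.05 limma gave 2 of 9, *Satb1* and *Notch1*, against 16.5% of all genes. On reads recovered from the values, edgeR and DESeq2, the latter run both with a prior for fold changes and without it, also called 0, but DESeq2 gave no adjusted *P* to *Ikzf3* and so could call only the other 8. The same held for several low genes of the lists below, and counts by DESeq2 refer to the genes with an adjusted *P*. The genotypes did not overlap, with *Irf1-/-* higher, for 3 of 9 (*Ikzf1*, *Satb1*, and *Notch1*), and this held for 10.6% of all tested genes in that direction, 9.27% in the other, and 19.9% in either. After quantile normalization only *Satb1* of the 9 was without overlap. Of the 9 log2 fold changes, 6 were above 0 (median 0.09), as were 49.6% over all tested genes (median −0.0030). Leaving out 1 library at a time put the median of the members between 0.024 (without *Irf1-/-* replicate 4) and 0.11, and was 0.059 without replicate 2 of either genotype. In bulk samples, fewer cells with a transcript and less of it per cell cannot be told apart.

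*Satb1* came closest to a call. It encodes a nuclear protein that tethers chromatin into loops and acts in stem cells and developing lymphocytes. It had 497, 424, and 449 normalized counts in WT replicates 2, 3, and 4 and 664, 709.5, and 669.6 in *Irf1-/-* replicates 2, 3, and 4. The lowest *Irf1-/-* library was above the highest WT library, and the values of each genotype lay close together (SD 37.3 in WT and 24.7 in *Irf1-/-*, *n* = 3). The mean in *Irf1-/-* HSCs was 1.49 times that in WT HSCs. Its fold change (log2) was 0.58 (0.579 before rounding, SE 0.148, 95% interval 0.26 to 0.90), just under the threshold, at an adjusted *P* of 0.04995 (limma). The exact two-sided permutation test over the libraries gave *P* = 0.1, which is as low as the test can go with 3 libraries in each genotype. On the TMM log2 CPM scale the fold change was 0.581 and the gene was called (adjusted *P* = 0.0475, limma). Without WT replicate 3 it was 0.53 (adjusted *P* = 0.176, limma), without WT replicate 4 it was 0.57 (adjusted *P* = 0.0587), and without both 0.45. The adjusted *P* was above 0.05 in each of the 6 fits that leave out 1 library. It was 0.144 without the intensity trend (limma). DESeq2 gave 0.576 at an adjusted *P* of 0.00383, under the threshold on the fold change.

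*Bcl11a*, a zinc finger repressor needed for lymphoid development, did not separate the genotypes. Its values were 4828, 4528, and 4554 in WT and 4401, 4778, and 4765 in *Irf1-/-* libraries. The highest value was WT replicate 2, the lowest *Irf1-/-* replicate 2, and the ranges overlapped. Its fold change (log2) was 0.0030 with a 95% interval from −0.18 to 0.19 (adjusted *P* = 0.993, limma), and its sign changed when single libraries were left out (−0.017 to 0.042). Its paralog *Bcl11b*, a T cell fate gene, lay between 2.25 and 35.3 normalized counts, and per kb of transcript it had a WT mean of 1.57 against 774 for *Bcl11a*.

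Of the IKAROS family, *Ikzf1*, which encodes IKAROS itself and is required for lymphoid development, had 3339, 3196, and 3360 normalized counts in WT and 3691, 3446, and 3423 in *Irf1-/-* libraries. All *Irf1-/-* values were above all WT values, but by little. Its log2 fold change was 0.093 (SE 0.088, adjusted *P* = 0.686, limma), and between 0.059 (without *Irf1-/-* replicate 2) and 0.11 with single libraries left out. *Ikzf2*, which encodes HELIOS, had 682, 684, and 913 in WT and 774, 756, and 954 in *Irf1-/-* libraries. Replicate 4 was the highest library in both genotypes, and the genotypes overlapped (0.13, SE 0.157, adjusted *P* = 0.771, limma). It was 0.024 without *Irf1-/-* replicate 4, 0.059 without WT replicate 2, 0.061 without WT replicate 3, and 0.27 without WT replicate 4. *Ikzf3*, which encodes AIOLOS, a factor of later B cells and of plasma cells, was barely detected, with 5.76, 27.0, and 15.1 normalized counts in WT and 8.53, 4.32, and 13.5 in *Irf1-/-* libraries. These values stand for between 5 and 24 reads. The highest was WT replicate 3, the library with *Jchain*, and the part of the plasma cell markers in this value was not tested. The log2 fold change of *Ikzf3* was −0.68 (SE 0.804, adjusted *P* = 0.760, limma), and it was −1.23 without WT replicate 2, −1.03 without *Irf1-/-* replicate 4, and −0.30 without *Irf1-/-* replicate 3, while without WT replicate 3 the gene fell under the minimum mean and was not tested.

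*Ikzf4*, which encodes EOS and is not among the 9, was called higher. It had 743, 554.5, and 562 normalized counts in WT and 909, 985, and 973 in *Irf1-/-* libraries. The genotypes were apart, with WT replicate 2 the nearest to the *Irf1-/-* libraries. The log2 fold change was 0.64 (SE 0.148, adjusted *P* = 0.0324, limma). The call was lost without any 1 of *Irf1-/-* replicates 2, 3, and 4 or WT replicates 3 and 4 (adjusted *P* up to 0.130, limma), and without both WT replicates 3 and 4 the fold change was 0.36 (adjusted *P* = 0.461, limma). It was also lost without the intensity trend in limma (adjusted *P* = 0.227). It was the only call among 15 other genes of the family and of the NuRD complex, the nucleosome remodeling and deacetylase complex with which IKAROS proteins associate, where 0.96% of all genes were called higher and 0.954% lower. *Chd3*, one of the remodeling ATPases of NuRD, had a fold change (log2) of 0.59 (adjusted *P* = 0.0551, limma), and passed the threshold without WT replicate 2 (0.72, adjusted *P* = 0.0309) or WT replicate 4 (0.64, adjusted *P* = 0.0474), while without WT replicate 3 it fell to 0.42 (adjusted *P* = 0.204) and without both WT replicates 3 and 4 to 0.33 (adjusted *P* = 0.471). *Chd4*, the other ATPase measured, had 0.039 (adjusted *P* = 0.889, limma). *Mbd3*, a NuRD subunit, lay between 8028 and 9372 normalized counts in *Irf1-/-* and between 9649 and 11179 in WT libraries (−0.26, adjusted *P* = 0.155, limma). *Rbbp7*, a histone chaperone subunit and the most abundant of the list, had −0.11 (adjusted *P* = 0.673, limma). The median of the 15 genes was −0.077, and 0 were called lower (3 of either direction at an unadjusted *P* under 0.05, against 16.5% of all genes, and 0 lower by edgeR and by DESeq2). By DESeq2 with the prior 0 of the list were called in each direction, with *Ikzf4* at 0.53, while a pseudocount of 5, a minimum mean of 50, and leaving out WT replicate 2 each gave 2 higher.

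*Notch1*, which encodes a receptor that is cleaved on contact with ligands of neighboring cells, had 1001, 896, and 1218 normalized counts in WT and 1424, 1231, and 1633 in *Irf1-/-* libraries. Replicate 4 was highest and replicate 3 lowest in both genotypes, and the genotypes were only just apart, with *Irf1-/-* replicate 3 above WT replicate 4 by a small margin. The mean in *Irf1-/-* HSCs was 1.38 times that in WT HSCs, with a fold change (log2) of 0.46 (SE 0.144, 95% interval 0.15 to 0.77, adjusted *P* = 0.106, limma). Without WT replicate 4 the gene was called (0.58, 0.584 before rounding, adjusted *P* = 0.0326, limma). Without WT replicate 3 the fold change was 0.36 (adjusted *P* = 0.351, limma), without *Irf1-/-* replicate 4 it was also 0.36 (adjusted *P* = 0.405), and without both WT replicates 3 and 4 it was 0.50 (adjusted *P* = 0.233). DESeq2 gave 0.46 at an adjusted *P* of 0.0302, under the threshold on the fold change.

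Of 28 other Notch pathway genes, 26 were tested, and limma called 1 higher and 0 lower, against 0.96% and 0.954% of all genes. At an unadjusted *P* under 0.05 limma gave 7 in either direction, against 16.5% of all genes, edgeR and DESeq2 also called 1 higher and 0 lower, and the list's median was 0.098. The called gene was the ligand *Dll4*, with 127, 124, and 166 normalized counts in WT and 253, 340, and 299 in *Irf1-/-* libraries. Every *Irf1-/-* library was well above every WT library, and the mean was 2.14 times as high. On the log2 scale the fold change was 1.09 (SE 0.237, adjusted *P* = 0.0228, limma). Leaving out *Irf1-/-* replicate 3 or 4 or WT replicate 2 or 3 removed this call (adjusted *P* up to 0.105, limma), at fold changes between 0.99 and 1.09, and without both WT replicates 3 and 4 (1.21, adjusted *P* = 0.0747), and it was also lost without the intensity trend (adjusted *P* = 0.125).

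The glycosyltransferase *Lfng*, which modifies Notch receptors and alters their response to ligands, had 1724, 1621, and 2113 normalized counts in WT and 2660, 2433, and 2502 in *Irf1-/-* libraries. The genotypes did not overlap, and WT replicate 4 was the nearest to the other genotype. Its log2 fold change of 0.485 was under the threshold (SE 0.114, adjusted *P* = 0.0339, limma), which it passed without WT replicate 4 (0.60, adjusted *P* = 0.00772). In the other 5 fits that leave out a library its adjusted *P* was above 0.05, at 0.41 without WT replicate 3 (adjusted *P* = 0.143, limma), and without both WT replicates 3 and 4 it was 0.55 (adjusted *P* = 0.0811). The ligand *Dll1* went the other way in its values, with 88.9, 63.1, and 66.7 in WT and 44.8, 0, and 44.6 in *Irf1-/-* libraries. The 0 in *Irf1-/-* replicate 3 set its fold change, −2.51 over all libraries (adjusted *P* = 0.270, limma) and −0.68 without that library. *Adam10*, the protease that cuts the bound receptor and the most abundant gene of the list, had 0.017 (adjusted *P* = 0.964, limma). Its sign changed when single libraries were left out (−0.053 to 0.088). Among target genes, *Nrarp* lay between 1065 and 1119 in WT and between 1199 and 1359 in *Irf1-/-* libraries (0.24, adjusted *P* = 0.315, limma), *Hes1* had −0.60 (adjusted *P* = 0.445), and *Hey1* and *Dtx1* were at most 9.59 in any library. These target genes were picked with their values in view.

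*Dntt* had 37.9, 14.7, and 135.5 normalized counts in WT and 28.8, 31.1, and 48.8 in *Irf1-/-* libraries. The highest and the lowest value were both WT, so that the *Irf1-/-* libraries lay inside the WT range. The log2 fold change was −0.27 (SE 0.659, 95% interval −1.68 to 1.15, adjusted *P* = 0.907, limma). Its sign rested on 1 library, since it was 0.56 without WT replicate 4 (adjusted *P* = 0.650, limma) and −1.01 without WT replicate 3 (adjusted *P* = 0.553), and −0.10 without both. Without each of the other 4 libraries it lay between −0.50 (*Irf1-/-* replicate 4) and −0.13 (*Irf1-/-* replicate 2), and on all 6 libraries edgeR gave −0.79, DESeq2 −0.79, and DESeq2 with the prior −0.19. WT replicate 4 is the library with the neutrophil genes, and it was also highest for *Rag1* (148.5, against between 41.5 and 97.0 elsewhere), *Igll1* (45.2, against at most 28.0), and *Ly6d* (59.2, against at most 5.63), genes of early lymphoid cells picked with their values in view. Other such genes were highest elsewhere, *Vpreb1* in WT replicate 3 (146.5, against 83.9 in WT replicate 4), *Il7r* in *Irf1-/-* replicate 4 (40.5, against 32.3), *Rag2* in *Irf1-/-* replicate 4 (10.4, against 4.30), and *Cd79a* in *Irf1-/-* replicate 2 (35.2, against 19.4). The part of other cells in these values was not tested. *Dntt* was covered by between 13 and 126 reads per library, and its SD over the WT libraries (64.2) was above their mean (62.7).

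Of the 13 genes of V(D)J recombination, the joining of antigen receptor segments in which TdT takes part, 12 were tested and limma called 0 (4 at an unadjusted *P* under 0.05, against 16.5% of all genes, all with *Irf1-/-* lower, and 0 by edgeR and by DESeq2). The recombinase gene *Rag2* was at most 10.4 normalized counts. *Hmgb2*, a DNA-bending protein that assists the recombinase and is also abundant in dividing cells, had 13200, 13634, and 12333 in WT and 10076, 11192, and 7890 in *Irf1-/-* libraries. The genotypes were apart and *Irf1-/-* replicate 4 was the lowest. Its fold change (log2) was −0.44 (SE 0.114, adjusted *P* = 0.0539, limma). *Prkdc* (−0.37, adjusted *P* = 0.181, limma) and *Lig4* (−0.75, adjusted *P* = 0.201), of the end-joining pathway, and *Hmgb1*, the most abundant gene of the list (−0.21, adjusted *P* = 0.241), also had their *Irf1-/-* values below all WT values. *Prkdc* was −0.241 without *Irf1-/-* replicate 3. The list's median was −0.15, and it was −0.093 without WT replicate 3, −0.051 without WT replicate 4, and −0.0090 without both. Over the same libraries the 10 proliferation markers, of which *Top2a* was the most abundant and none was at 0, summed to 59361, 60932, and 45128 in WT and to 41451, 42575, and 26766 in *Irf1-/-* libraries. Of these markers *Mki67* (−0.67), *Top2a* (−0.77), and *Aurkb* (−0.63) were called lower, against 0.954% of all genes, and all 10 had an unadjusted *P* under 0.05 (limma), against 16.5% of all genes in either direction. Each lost its call without *Irf1-/-* replicate 4 (−0.47, −0.55, and −0.44), without WT replicate 2 (−0.56, −0.69, and −0.579), and without WT replicate 3 (−0.645, −0.71, and −0.57; adjusted *P* = 0.130, 0.0674, and 0.137, limma), *Mki67* also without *Irf1-/-* replicate 2, *Aurkb* also without *Irf1-/-* replicate 3, and all 3 without the intensity trend. The markers' part in the values of the recombination genes was not tested.

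*Cd79b*, one of the 2 signaling chains of the B cell receptor, had 2690, 2938, and 2521 normalized counts in WT and 2952, 2784, and 2914 in *Irf1-/-* libraries. The genotypes overlapped. The log2 fold change was 0.089 (SE 0.096, 95% interval −0.12 to 0.29, adjusted *P* = 0.731, limma), with 0.036 without WT replicate 4 and 0.15 without WT replicate 3. Its partner *Cd79a* was low in the same libraries, between 7.78 and 35.2 normalized counts. Per kb of transcript the WT means were 1898 for *Cd79b* and 15.6 for *Cd79a*. The defining B cell genes were low too, with *Ms4a1* between 20.8 and 51.6 normalized counts and *Pax5* between 2.47 and 18.3. The 7 B cell markers with a row, with *Cr2* the most abundant and none at 0 in all libraries, summed to 272, 306.5, and 429 in WT and to 488, 392, and 472 in *Irf1-/-* libraries, with the genotypes overlapping.

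Of the 14 listed genes of B cell receptor signaling, 12 had a row, *Cd79a* among them. Limma called 0 of 12, with a median of 0.17 (3 at an unadjusted *P* under 0.05, against 16.5% of all genes, and 0 by edgeR and by DESeq2). *Cd72*, a surface receptor that dampens B cell receptor signals, had 1621, 1666, and 1634 normalized counts in WT and 1900, 2242, and 2180 in *Irf1-/-* libraries. The genotypes were apart, and the WT libraries lay close together. On the log2 scale the fold change was 0.36 (SE 0.105, adjusted *P* = 0.0865, limma). The adaptor *Blnk* lay between 32.7 and 73.2 in WT and between 85.5 and 125.8 in *Irf1-/-* libraries (0.96, SE 0.388, adjusted *P* = 0.226, limma). *Cd22* had 15.6, 14.7, and 85.0 in WT and 58.6, 95.9, and 64.4 in *Irf1-/-* libraries. WT replicate 4 was within the *Irf1-/-* range, and without it *Cd22* was called (2.16, adjusted *P* = 0.0225, limma), against 1.36 over all libraries (adjusted *P* = 0.279), 0.935 without WT replicate 3 (adjusted *P* = 0.625), and 2.12 without both (adjusted *P* = 0.101). The phospholipase gene *Plcg2* was the most abundant, between 23086 and 28561 normalized counts (0.15, adjusted *P* = 0.467, limma).

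*Lck*, the SRC family kinase that starts T cell receptor signaling, had 925, 965, and 1041 normalized counts in WT and 956, 931.5, and 939.5 in *Irf1-/-* libraries. All *Irf1-/-* libraries fell within the WT range. Its fold change (log2) was −0.050 (SE 0.121, 95% interval −0.31 to 0.21, adjusted *P* = 0.904, limma). It was −0.0030 without WT replicate 4, −0.089 without WT replicate 2, and 0.027 without both WT replicates 3 and 4. Of the receptor chains and coreceptors that LCK serves, *Cd3e* and *Cd3g* were at most 7.89 and 12.4 normalized counts and *Cd8a* at most 2.59, while *Cd3d* reached 52.7 in WT replicate 4 and *Cd4* lay between 116.9 and 340.5. *Zap70*, the kinase that acts after LCK, was at most 9.02. Per kb of transcript *Lck* had a WT mean of 447, against 102 for *Cd247*, the zeta chain, 62.2 for *Cd4*, 24.1 for *Cd3d*, 3.92 for *Cd3e*, and 2.12 for *Zap70*. Adaptors and kinases shared with other blood cells were high on this scale, with WT means of 3233 for *Lat*, 2600 for *Lcp2*, and 2267 for *Fyn*.

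Of 15 other genes of T cell receptor signaling, 11 were tested and limma called 0 (2 at an unadjusted *P* under 0.05, against 16.5% of all genes, and 0 by edgeR and by DESeq2), with a median of 0.011, which lay between 0.026 and 0.097 with single libraries left out and at −0.021 by DESeq2. *Cd247*, which also serves receptors of natural killer cells, had 267, 174, and 388 normalized counts in WT and 444.5, 397, and 439 in *Irf1-/-* libraries. WT replicate 4 came nearest to the *Irf1-/-* libraries, which lay together. Its fold change (log2) was 0.70 (SE 0.252, adjusted *P* = 0.168, limma), and without WT replicate 4 it was 0.98 and called (adjusted *P* = 0.0257). Without WT replicate 3 it was 0.40 (adjusted *P* = 0.513, limma), and without both 0.675 (adjusted *P* = 0.244). The 6 natural killer cell markers, of which *Klrb1c* was the most abundant and *Gzma* was at 0 in all libraries, summed to 526.7, 410.2, and 598.1 in WT and to 458.4, 521.9, and 869.9 in *Irf1-/-* libraries. Without *Klrb1c* the sum was 104.4 in WT replicate 4 and between 15.8 and 45.8 elsewhere, and the part of these markers in the values of *Cd247* was not tested. The adaptor *Lcp2* had 0.19 (adjusted *P* = 0.281, limma), the phospholipase *Plcg1* 0.20 (adjusted *P* = 0.305), and the phosphatase *Ptprc*, the most abundant gene of the list, −0.020 (adjusted *P* = 0.951). The sign of *Ptprc* changed when single libraries were left out (−0.066 to 0.026).

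**Figure D1:**
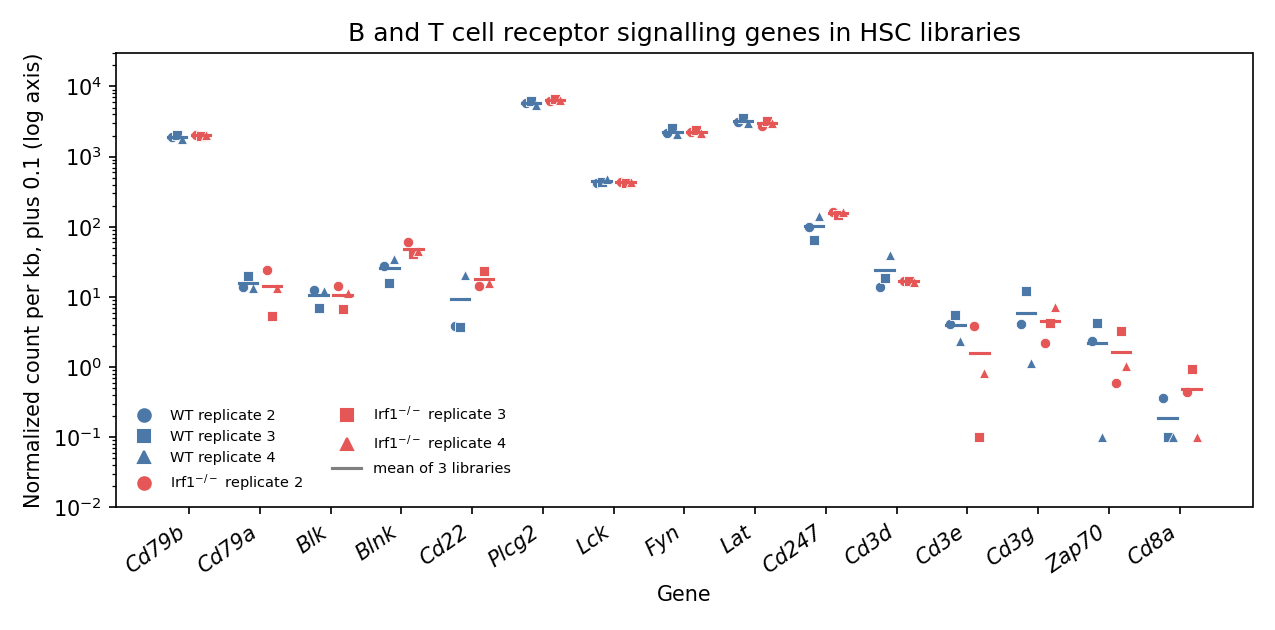
Normalized count per kb of transcript, plus 0.1 (log axis), of 15 B and T cell receptor signaling genes in each library, with colors, symbols, and bars for WT and *Irf1-/-* as labelled. *Cd79b* (WT mean 1898) and *Lck* (447) lie far above their receptor partners *Cd79a* (15.6) and *Cd3e* (3.92) in both genotypes.

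Compared by normalized counts per kb of the longest coding transcript, the 9 genes formed a ladder. The WT means were 1898 for *Cd79b*, 774 for *Bcl11a*, 639 for *Ikzf1*, 447 for *Lck*, 109 for *Notch1*, 80.7 for *Ikzf2*, 73.1 for *Satb1*, 29.5 for *Dntt*, and 4.36 for *Ikzf3*. The ranges over the WT libraries did not overlap between the first 5 genes. On this scale *Notch1* (94.4 to 128) overlapped *Ikzf2* (72.4 to 97.0), and *Ikzf2* overlapped *Satb1* (67.9 to 79.6). In *Irf1-/-* HSCs *Satb1*, at between 106 and 114 per kb, was above *Ikzf2*, at between 80.3 and 101. *Dntt* in WT (6.89 to 63.7 per kb) overlapped no gene above it but *Ikzf3* below (1.57 to 7.39). In the percentile order of 15440 tested genes with a transcript length, *Cd79b* stood at 82.7 and *Ikzf3* at 1.4.

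Wider lymphoid progenitor genes were mixed. Of 26 listed genes 22 were tested, and limma called 1 higher and 0 lower (where 0.96% and 0.954% of all genes were called; 9 in either direction at an unadjusted *P* under 0.05, against 16.5% of all genes, also 1 and 0 by edgeR and by DESeq2, and 0 in each direction by DESeq2 with the prior), with a median log2 fold change of 0.084. This median was −0.018 without WT replicate 3, −0.0080 without *Irf1-/-* replicate 4, 0.20 without *Irf1-/-* replicate 2, 0.15 without WT replicate 4, and 0.16 without both WT replicates 3 and 4. The called gene was *Flt3*, the receptor for FLT3 ligand that marks multipotent and early lymphoid progenitors, with 2656, 1730, and 2865 normalized counts in WT and 3442, 4476, and 3460 in *Irf1-/-* libraries. The genotypes were apart, with WT replicate 3 the lowest and *Irf1-/-* replicate 3 the highest. The log2 fold change was 0.67 (SE 0.164, adjusted *P* = 0.0407, limma). The call was lost without *Irf1-/-* replicate 2, 3, or 4 or WT replicate 3 (adjusted *P* up to 0.127, limma), at 0.45 without WT replicate 3 and at 0.50 (adjusted *P* = 0.153) without both WT replicates 3 and 4. It was also lost without the intensity trend (adjusted *P* = 0.358, limma).

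*Ets1*, a transcription factor of lymphocyte development, had 1590, 1712, and 1729 normalized counts in WT and 2740, 2492, and 2175 in *Irf1-/-* libraries. All *Irf1-/-* values were above all WT values, and its 0.55 was under the threshold on the fold change (SE 0.110, adjusted *P* = 0.0141, limma), which it passed without *Irf1-/-* replicate 4 (0.64), while leaving out *Irf1-/-* replicate 2 (0.47) or WT replicate 2 (0.515) raised its adjusted *P* to 0.0765 and 0.0610. *Foxo1*, a regulator of lymphoid gene programs, had 0.31 (adjusted *P* = 0.104, limma), and *Mef2c*, the most abundant of the list, had −0.27 (adjusted *P* = 0.133), both without overlap. Of genes of B cell progenitors, *Ebf1* was at most 26.6 normalized counts and *Vpreb1* lay between 65.7 and 146.5, while *Il7r*, of early lymphoid cells, was at most 40.5 and *Ptcra*, of T cell progenitors, at most 4.26. Markers of multipotent progenitors other than *Flt3* gave log2 fold changes of 0.11 for *Cd48* (adjusted *P* = 0.878, limma) and 0.16 for *Cd34* (adjusted *P* = 0.495). With single libraries left out, *Cd48* ran from −0.071 to 0.240 and *Cd34* from 0.048 to 0.237. The 3 markers, with *Cd34* the most abundant, summed to 19641, 17853, and 20003 in WT and to 20379, 26211, and 21245 in *Irf1-/-* libraries, and their part in the value of *Flt3* was not tested.

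**Figure D2:**
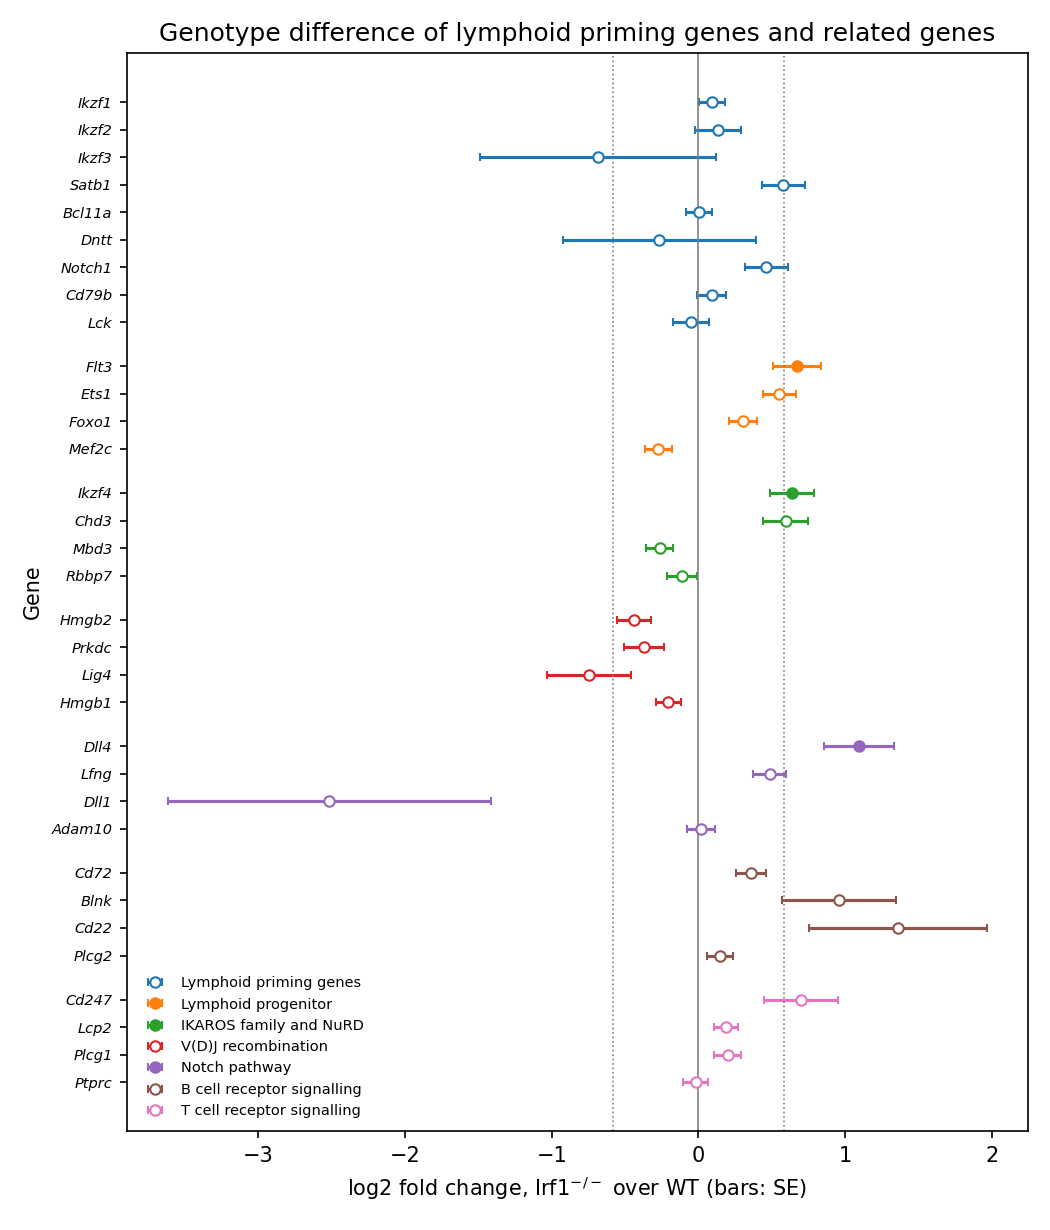
Log2 fold changes (*Irf1-/-* over WT, limma, bars ± SE) of the 9 lymphoid priming genes and of 24 related genes by list, with filled points for called genes and dotted lines at −0.58 and 0.58. *Satb1* (0.579) and *Notch1* (0.46) lie highest among the 9, and *Flt3* (0.67), *Ikzf4* (0.64), and *Dll4* (1.09) are the called genes shown.

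A broader view came from 298 genes of common lymphoid progenitors, a lineage gene set that the study took from other data and that includes *Satb1*, *Bcl11a*, and *Lck*. Of these, 273 had a row and 249 were tested, and limma called 6 higher and 3 lower, where 0.96% and 0.954% of all tested genes were called. The median log2 fold change was 0.12, and 164 of the 249 were above 0, against −0.0030 and 49.6% over all tested genes. At an unadjusted *P* under 0.05 limma gave 58 in either direction, against 16.5% of all genes. The genotypes did not overlap for 47 with *Irf1-/-* higher and 15 with *Irf1-/-* lower, against 10.6% and 9.27% of all tested genes. With each library left out in turn, between 3 and 9 genes were called higher, between 2 and 4 lower, and the median lay between 0.085 and 0.17. Over all tested genes these fits called between 83 and 304 higher and between 105 and 265 lower. The most genes of this list called higher, 9, came without WT replicate 4, the fit that called 304 higher over all tested genes. Without both WT replicates 3 and 4, 5 were called higher and 2 lower, with a median of 0.17. DESeq2 called 10 higher and 4 lower, with a prior 4 and 2, and edgeR 6 and 3. Over all genes DESeq2 called 299 higher and 211 lower, and with the prior 173 and 134, of 24410 genes. EdgeR called 165 and 162 of 17404.

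Of the called genes of this list, *Il10ra*, which encodes the ligand-binding chain of the interleukin-10 receptor, had 290.5, 158, and 179 normalized counts in WT and 677, 624, and 548 in *Irf1-/-* libraries. Every *Irf1-/-* library was far above every WT library. It was called higher with a fold change (log2) of 1.60 (SE 0.229, adjusted *P* = 0.00155, limma), also without each library in turn, but not without the intensity trend (adjusted *P* = 0.125), where limma called 0 of the list higher and 2 lower, *Il17rc* and *Gbp8*. *Tecpr1*, an autophagy gene, had 0.68 (adjusted *P* = 0.00867, limma) and was not called when WT replicate 3 was left out, at 0.53. The other genes called higher were *Enho* (0.87, adjusted *P* = 0.0244, limma), *Kifc2* (0.85, adjusted *P* = 0.0282), *Rgs7bp* (0.66, adjusted *P* = 0.0393), and *Smad7*, which encodes an inhibitor of TGF-β signaling (0.61, adjusted *P* = 0.0405). *Rgs7bp* lost its call without any 1 of the 6 libraries, while *Smad7* and *Enho* each kept it in only 1 of the 6 fits and *Kifc2* in 2 (adjusted *P* up to 0.212, 0.109, and 0.109, limma).

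Called lower were *Il17rc*, a chain of the interleukin-17 receptor, *Gbp8*, of the guanylate-binding proteins, and *Tbxa2r*, the thromboxane receptor. *Il17rc* had 260, 223, and 333.5 normalized counts in WT and 67.2, 58.8, and 72.7 in *Irf1-/-* libraries. *Gbp8* had 1524, 1703, and 1522 in WT and 565, 502, and 586.5 in *Irf1-/-* libraries. For both genes every *Irf1-/-* library was below every WT library, and both calls held without each library in turn. Their log2 fold changes were −2.01 (SE 0.277, adjusted *P* = 0.00113, limma) and −1.52 (SE 0.127, adjusted *P* = 8.82e-06). *Tbxa2r* had −0.59 (adjusted *P* = 0.0138, limma) and was not called when *Irf1-/-* replicate 3 or 4, or else WT replicate 3 or 4, was left out (−0.49 without WT replicate 3).

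The genes whose pattern over the 6 libraries was most like that of *Satb1* and *Notch1*, the members with the lowest *P*, were taken from 12069 genes that averaged at least 100 normalized counts. For *Satb1* these were *Ablim1* (Pearson *r* = 0.997), *Fndc3a* (0.996), and *Gm2a* (0.995), and the most opposite were *Orc6* (−0.998), *Fgl2* (−0.994), and *Rgs10* (−0.991). Of them *Gm2a* passed the call (log2 fold change 0.58, adjusted *P* = 0.00283, limma) while *Ablim1* was just under the threshold (0.578, adjusted *P* = 0.00453). For *Notch1* they were *Card6* (0.991), *Tmem44* (0.990), and *Hgf* (0.990), and at the other end *Pdss2* (−0.995), *Chek1* (−0.995), and *Ncaph2* (−0.994). Each *r* rests on 6 points that share the 2 genotypes and, between genes, the same libraries.

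Of the 9 genes, *Ikzf1*, *Ikzf3*, *Bcl11a*, and *Cd79b* lie on the chromosome of *Irf1* in the gene order of assembly GRCm38.p6. The nearest to *Irf1*, *Bcl11a*, had 167 tested genes between them. In an older annotation (GENCODE vM1), noncoding genes overlapped *Ikzf1*, *Bcl11a*, and *Notch1* on the opposite strand, and the sources do not give a strand setting for counting. Those with a row were at most 57.1 normalized counts, the value of *0610009E02Rik* at *Notch1* in *Irf1-/-* replicate 4.

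Promoter windows from RefSeq (GRCm38.p6), from 250 bases before to 50 bases after a gene's start, matched 6 of the 10 genes, *Ikzf1*, *Satb1*, *Bcl11a*, *Dntt*, *Notch1*, and *Lck*, with 12 windows in all. A repeat that interferon regulatory factors recognize, with 2 blocks of GAAA set 2 bases apart, was searched on both strands. It was in 0 of these 12 windows and in 3.44% of the 32851 windows of all genes, which says only that the repeat is not in these windows.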

How the data were processed

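Amplification of RNA from sorted HSCs used SMART-Seq v4 chemistry, followed by Nextera XT library preparation. According to the processing notes and the study's methods, the authors used Trim Galore for trimming, HISAT2 for alignment (mm39), and HTSeq-count for counting. What the authors deposited is a signal computed from reads, each gene's count over 1 size factor per library. Since 100% of values were whole multiples of 1 read (tolerance 0.001), reads were recovered. Without molecular identifiers, reads are not independent molecules.

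The genotype fit used limma 3.58.1 (R 4.3.3; lmFit, eBayes with trend) on log2(normalized count + 1), for genes with a mean of at least 10, with Benjamini-Hochberg adjustment over all tested genes. edgeR 4.0.16 and DESeq2 1.42.0 were run on recovered reads. Alternatives covered pseudocount, filter, trend, scaling, replicate block, libraries left out, test, and threshold. Lengths came from GENCODE vM1 (longest coding transcript by symbol, 88.7% of tested genes), not from the annotation used for counting. Figures were drawn with matplotlib 3.10.9.

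The 10 members and the lists were chosen with earlier results of these data known. Named were the members and *Irf1*, and from each list its called genes (up to 6), the 3 genes with the lowest *P* where fewer than 3 were called, and its most abundant gene by mean normalized count, not corrected for length. From the common lymphoid progenitor list up to 6 called genes in each direction were named. For the 2 members with the lowest *P*, the 3 most and 3 least correlated genes were named. Other genes were named after their values were seen.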

Additional observations from a re-analysis of the deposited data

How the results depend on the processing

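Over all tested genes, limma called 167 higher and 166 lower. The counts were 7 and 33 without the intensity trend, 299 and 211 with DESeq2 and 173 and 134 with its prior, both run on 24410 genes in place of 17404, and 301 and 260 without the threshold on the fold change. With single libraries left out they ranged from 83 to 304 higher and from 105 to 265 lower, and without both WT replicates 3 and 4, an alternative chosen after seeing the data in which the lone WT library is assumed to vary like the *Irf1-/-* libraries, 123 were called higher and 93 lower. Of the 9 lymphoid priming genes, 1 was called higher, in place of 0, on the TMM log2 CPM scale (*Satb1*, 0.581), without the threshold on the fold change (*Satb1*), and without WT replicate 4 (*Notch1*, 0.584), so that leaving out single libraries gave between 0 and 1. None was called lower under any alternative run. The number without overlap between genotypes was 1 in place of 3 after quantile normalization. The causes were not tested.

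The adjusted *P* of *Satb1* ranged from 0.00382 to 0.387 over its 18 alternatives and was under 0.05 in 8, and that of *Notch1* ranged from 0.0302 to 0.405 and was under 0.05 in 4. With single libraries left out, *Satb1* ranged from 0.53 to 0.64 and *Notch1* from 0.36 to 0.58. Signs changed for *Bcl11a* (−0.017 to 0.042 with single libraries left out, −0.056 without both WT replicates 3 and 4), *Dntt* (−1.01 to 0.56 with single libraries left out), and *Lck* (0.027 without both WT replicates 3 and 4). The signs of *Ikzf1*, *Ikzf2*, *Satb1*, *Notch1*, and *Cd79b* were the same under every alternative that gave a value. *Ikzf3* had no value without WT replicate 3, without both WT replicates 3 and 4, or at a minimum mean of 50, where *Dntt* had none either. *Ikzf3* passed the minimum mean through its WT values alone, so its sign in the other alternatives says nothing of its direction.

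Libraries with the same replicate number did not all deviate together (correlation of deviations −0.094, 0.246, and 0.147 for numbers 2, 3, and 4). The labels do not say whether libraries of equal number were processed together, and these correlations cannot decide it. With the replicate number as a block, 219 genes were called higher and 196 lower, with 2 higher among the IKAROS family and NuRD genes and 0 of the 9, with *Satb1* at an adjusted *P* of 0.0486 and *Notch1* at 0.0324 (limma).

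With 3 mice per genotype, *Dntt* and *Ikzf3* were measured with SEs of 0.659 and 0.804, against 0.086 for *Bcl11a*. The lowest library had 13 reads of *Dntt* and 5 of *Ikzf3*. The part of depth in these SEs was not tested.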

Other observations

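Genes of HSC identity outside the lymphoid program were measured in the same libraries. *Fgd5*, a gene whose expression marks HSCs, had 3918, 3818, and 3522 normalized counts in WT replicates 2, 3, and 4 and 6752, 6881, and 6387 in *Irf1-/-* replicates 2, 3, and 4. Every *Irf1-/-* library was above every WT library, and the gene was called higher (log2 fold change 0.83, SE 0.087, adjusted *P* = 9.13e-05, limma), also without each library in turn, but not without the intensity trend (adjusted *P* = 0.0511). *Procr*, which encodes the surface protein EPCR, had 4487, 3754, and 4147 in WT and 5423, 6456, and 5866 in *Irf1-/-* libraries. Its 0.52 was under the threshold on the fold change (adjusted *P* = 0.0112, limma), which it reached without WT replicate 2 (adjusted *P* = 0.0149), and was 0.45 without WT replicate 3 (adjusted *P* = 0.0479). *Ly6a*, which encodes the sort marker Sca1, had 6908, 7439, and 7692 in WT and 4974, 6047, and 5376 in *Irf1-/-* libraries (−0.43, adjusted *P* = 0.0245, limma), also under the threshold, with an adjusted *P* up to 0.115 when single libraries were left out.

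Some genes were high in a single library. In WT replicate 3 this held for *Ly6c2* (808, against at most 181 elsewhere) beside *Jchain*. In WT replicate 4 it held for *Ngp* (2535, against at most 127), *Camp* (666, against at most 95.5), *Lcn2* (513, against at most 15.6), and *Mmp9* (256, against at most 38.4). *Siglech* (69.9) and *Ccr9* (65.6), which are expressed by plasmacytoid dendritic cells, were also highest in WT replicate 4, against at most 22.8 and 36.3 elsewhere. The other 3 of 5 markers of these cells were highest in *Irf1-/-* libraries, *Bst2* (4015.6) and *Tcf4* (6135.3) in replicate 3 and *Irf8* (837.7) in replicate 4. *Tcf7*, a T lineage gene, was low in all libraries, with 42.8, 18.03, and 11.8 normalized counts in WT and 57.6, 82.1, and 58.1 in *Irf1-/-* libraries (1.58, adjusted *P* = 0.131, limma), without overlap between genotypes.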
